A study of Mus musculus with 12 samples.

Results

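Ahnak, S100a4, S100a6, S100a10, Anxa2, Vim, Lgals1, Crip1 and Plscr1 are 9 genes of the cell membrane and cytoskeleton that are typical of memory and B1 cells. Their levels are described here in naive mouse B cells that were wild-type, heterozygous or homozygous for floxed Bcl6. The genes were chosen by name, with earlier results of these arrays known. For each, the brightest probe set, by its average level on the 12 arrays, was used. All 9 were found among the 18193 genes with a single symbol, and all 9 were among the 9306 genes that passed the filter on low values. The series used 12 Affymetrix arrays, 2 for each of 6 groups, with B cells from the spleens of C57BL/6 females at 10 weeks of age. Every mouse, controls included, carried 1 mb1-cre allele, mb1-cre(+/-), a driver that restricts Cre recombinase to B lineage cells. The wild-type groups were Bcl6(+/+), the heterozygous groups Bcl6(+/flox) and the homozygous groups Bcl6(flox/flox), each in follicular (FO) and in marginal zone (MZ) B cells. FO cells were sorted as B220+AA4.1-CD21intCD23+ and MZ cells as B220+AA4.1-CD21highCD23low, after magnetic depletion that also removed cells with CD43, CD5 or CD95. This driver is active from early B cell development on, before the sorted stages. Nothing in the labels ties the 2 arrays of each group to different animals, and the spread that p-values measure may therefore be technical only.

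AHNAK is a very large scaffold protein under the plasma membrane, which binds the complex of S100A10 and annexin A2. S100A10 is a small EF-hand protein that pairs with annexin A2, and annexin A2 binds membrane phospholipids when calcium rises. S100A4 and S100A6 are calcium sensors of the same EF-hand family, and S100A4 binds non-muscle myosin. Vimentin, encoded by Vim, is the main intermediate filament protein of lymphocytes. Lgals1 encodes galectin-1, a lectin that binds galactosides on glycoproteins. Crip1 encodes a small LIM-domain protein, and Plscr1 a phospholipid scramblase that interferon induces. Genes of this kind are known to be higher in memory B cells and in B1 cells than in resting follicular B cells. BCL6 is a transcriptional repressor that germinal centre B cells need.

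Values are log2 expression, on which 1 unit is a doubling, and levels are compared for 1 probe set across arrays, never between genes. The targeted gene has 2 probe sets. One of them was at 4.86 to 5.61 on the FO wild-type and heterozygous arrays, at 2.36 and 2.48 on the FO homozygous arrays and at the array minimum of 2.22 on every MZ array. The other was higher on homozygous than on wild-type arrays, at 12.70 and 12.88 against 11.95 and 11.65 in FO cells and at 9.95 and 10.37 against 8.29 and 8.81 in MZ cells. Where either probe set lies relative to the floxed exons is not given in the sources used here. Below, deletion names the flox genotype, and its extent was not measured apart from these probe sets. The 4 listed B cell markers with a level of their own (Ms4a1, Cd79a, Cd79b and Pax5) exceeded 4 on all arrays. Fcer2a, which encodes CD23, was at 13.63 to 14.25 on FO arrays and at 8.85 to 9.50 on MZ arrays, as the sort requires. MZ wild-type replicate 1 stands apart, with Gapdh control probes 6.90 apart between 3' and 5' ends against -0.20 to 0.63 on the other 11 arrays. Neutrophil genes also appeared on 4 arrays: of 7 such genes, 3 reached a log2 value of 4 on FO heterozygous replicate 1, 4 on FO homozygous replicate 1, 3 on MZ wild-type replicate 1 and 2 on MZ homozygous replicate 1, and 0 on the other 8 arrays. For the 9 members, the main results that rest on these arrays are given below with and without them. For other genes, the differences given are those of all 12 arrays. In bulk samples, fewer cells of a type and less RNA per cell cannot be told apart.

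In FO cells, 8 of the 9 genes were higher on both homozygous arrays than on both wild-type arrays, and Ahnak, S100a4 and S100a6 were also ordered by the number of Bcl6 alleles that could be deleted. None of the 9 passed the threshold of an adjusted p of 0.05 in limma, which moderates the spread of each gene and adjusts over all 9306 genes by Benjamini-Hochberg. In this comparison 0.376% of tested genes were called higher and 0.0537% lower, and 18.0% had both homozygous arrays above both wild-type arrays. All 9 group differences were above 0, as were 49.3% of those of tested genes. The median difference of the 9 genes was 0.84, and that of all tested genes was 0. Since the genes were named with results of these arrays in view, these counts describe them and are not independent support. Because an earlier account of these data had already reported Ahnak for homozygous deletion, its difference is given without a p-value.

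Ahnak, the scaffold gene, was at 9.80 and 9.98 on the 2 FO wild-type arrays, at 10.80 and 10.84 on the heterozygous arrays and at 12.45 and 12.30 on the homozygous arrays. The 3 genotypes did not overlap, and the arrays within each differed by less than 0.2. The homozygous level was 2.48 ± 0.53 (SE, 2 arrays a group) above wild-type, a 5.59-fold difference. The heterozygous level lay 0.93 ± 0.53 above wild-type.

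S100a6 had the same order as Ahnak. It was at 7.78 and 8.13 in wild-type, at 9.16 and 8.80 in heterozygous and at 10.89 and 10.50 in homozygous FO arrays, again without overlap. The homozygous minus wild-type difference was 2.74 ± 0.60 (limma adjusted p = 0.143), or 6.66-fold. Without either MZ wild-type array, whose group had an SD of 1.43, S100a6 passed (limma adjusted p = 0.0249 in both cases), in fits that called 58 genes in place of 40. S100a4 was low in wild-type FO cells, at 4.23 and 3.35, and read 5.70 and 4.71 in heterozygous and 7.49 and 6.03 in homozygous arrays. Its groups were ordered without overlap too, but its arrays within a group were up to 1.46 apart. The difference of 2.96 ± 0.91 (limma adjusted p = 0.367) had the largest SE of the 9. That SE comes from the spread on all 12 arrays, and the widest gap of S100a4, 2.95, was in MZ homozygous cells. Such a strict order over the 6 FO arrays, wild-type below heterozygous below homozygous, was seen for 2.82% of tested genes.

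Among the genes of the AHNAK complex, S100a10 was already near the top of its range. It was at 12.97 and 13.02 in wild-type, 13.01 and 13.29 in heterozygous and 13.73 and 13.75 in homozygous FO arrays. Only the homozygous arrays stood above the rest, by 0.75 ± 0.21 over wild-type (limma adjusted p = 0.306). Anxa2, which encodes the partner of S100A10, was at 6.42 and 6.09, 6.19 and 6.37, and 6.39 and 6.85 on the same arrays. It was the member whose homozygous and wild-type arrays overlapped, with a difference of 0.37 ± 0.28 (limma adjusted p = 0.942).

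Vim, Lgals1 and Crip1 had small differences in FO cells. Vim was at 14.13 and 13.89 in wild-type, 14.31 and 13.95 in heterozygous and 14.68 and 14.42 in homozygous arrays. Lgals1 was at 8.68 and 9.54, 9.31 and 9.23, and 9.94 and 9.96, and Crip1 at 13.34 and 14.04, 13.69 and 14.13, and 14.17 and 14.31. In each of the 3 genes the homozygous arrays were the highest pair, while the heterozygous arrays lay within or close to the wild-type range. The homozygous minus wild-type differences were 0.54 ± 0.48 for Vim, 0.84 ± 0.52 for Lgals1 and 0.55 ± 0.25 for Crip1 (limma adjusted p = 0.95, 0.907 and 0.741). Plscr1, the scramblase gene, was at 6.65 and 5.50 in wild-type, 8.09 and 6.75 in heterozygous and 8.77 and 7.90 in homozygous FO arrays. Its wild-type arrays lay below all 4 others, by 1.35 ± 0.68 for heterozygous and 2.26 ± 0.68 for homozygous cells (limma adjusted p = 1 and 0.353).

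**Figure D1:**
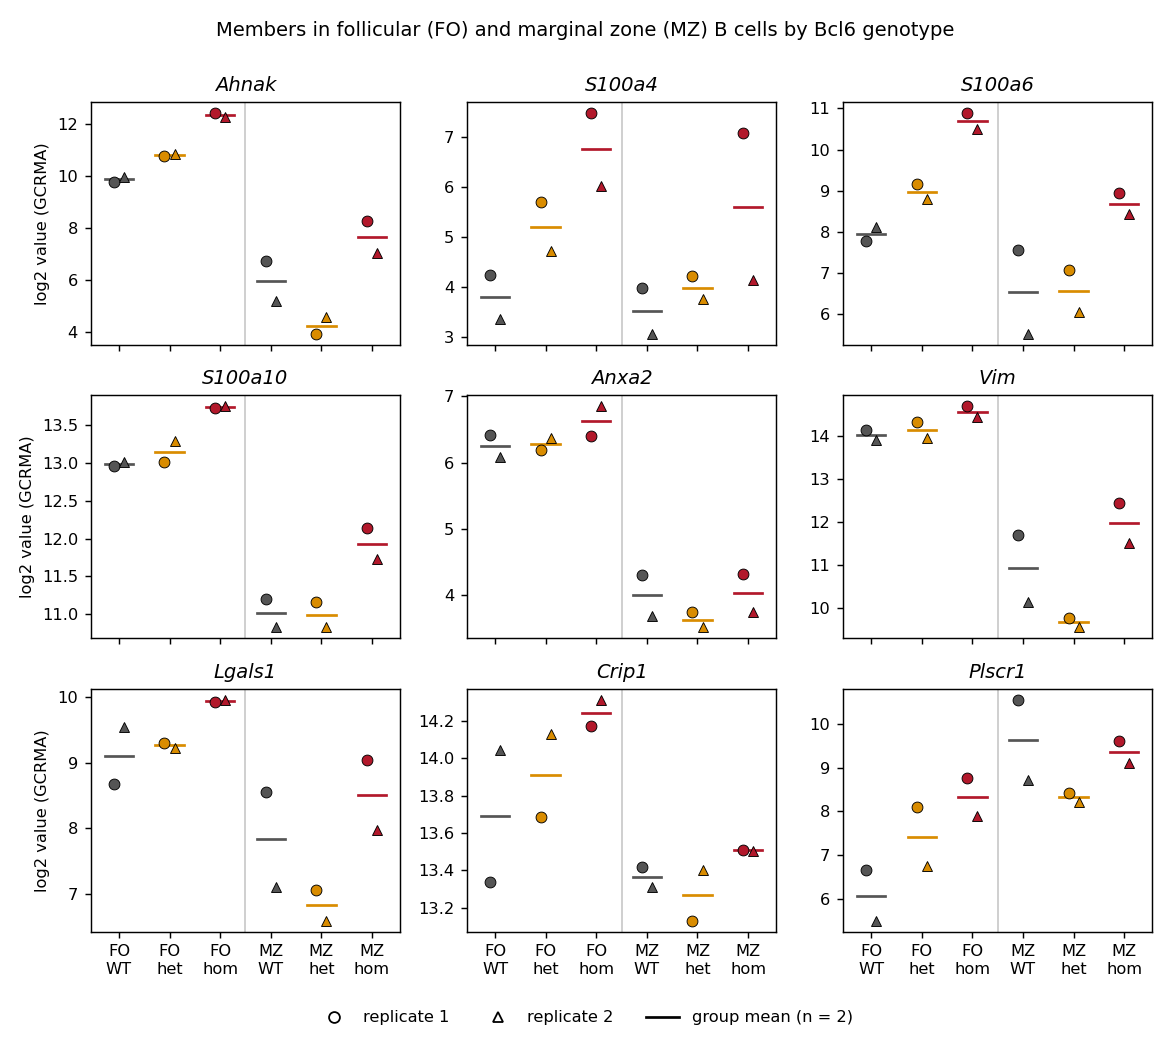
Level of each of the 9 genes on each of the 12 arrays, in log2 expression, by cell type and Bcl6 genotype; each point is 1 array. Ahnak, S100a4 and S100a6 step up with genotype on the FO arrays, and Ahnak on all FO arrays (9.80 to 12.45) lies above all MZ arrays (3.91 to 8.26).

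Neutrophil RNA was present on 1 of the 2 homozygous FO arrays. On FO homozygous replicate 1, S100a8 was at 9.17 and S100a9 at 9.81, and on replicate 2 they were at 2.66 and 2.24, the latter near the array minimum. Ahnak and S100a6 on replicate 2, at 12.30 and 10.50, still exceeded every wild-type and heterozygous FO array. Without the 4 arrays that carried neutrophil genes, a choice made after seeing the data, all 9 genes remained higher in homozygous than wild-type FO cells. Their median difference was then 0.85, with 2.41 for Ahnak, 2.54 for S100a6, 2.23 for S100a4 and 1.82 for Plscr1, and none passed the threshold. That fit leaves some groups with 1 array, which is assumed to vary like the other groups.

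With 1 floxed allele the differences were smaller in each of the 9 genes than with 2. Against wild-type FO cells all 9 genes had a positive difference, of 0.02 for Anxa2 to 1.42 for S100a4, where 49.7% of tested genes did, and 4 of them (Ahnak, S100a4, S100a6 and Plscr1) did not overlap. In all tested genes 12.8% had both heterozygous arrays above both wild-type arrays. No gene at all was called in that comparison by limma (0 of 9306, with 184 at an unadjusted p under 0.05). From heterozygous to homozygous cells the 9 differences were again positive, against 49.6% of tested genes, with a median of 0.68. In 8 genes the groups did not overlap, against 13.6% of tested genes, and none was among the 0.0645% called higher. Plscr1 was the gene whose heterozygous and homozygous arrays overlapped. With the 4 arrays with neutrophil genes left out, 8 of the 9 heterozygous minus wild-type differences were above 0, with a median of 0.44. Those of Ahnak, S100a4, S100a6 and Plscr1 were then 0.96, 0.92, 0.84 and 0.68. All 9 homozygous minus heterozygous differences stayed above 0, with a median of 0.73. These 3 FO comparisons share arrays and are not independent of each other.

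The promoters of 7 of the 9 genes were in the RefSeq table used here, as the 250 bases before each start in build GRCm38.p6, and 5 of them are printed because their genes moved furthest with genotype or carry a match to a searched motif. All 5 are on the plus strand. Ahnak lies at chr19:8989034-8989283, S100a4 at chr3:90603520-90603769, S100a6 at chr3:90612644-90612893, Anxa2 at chr9:69453433-69453682 and Plscr1 at chr9:92249944-92250193. S100a4 and S100a6 are close neighbours on chromosome 3, with S100a5 between them, and S100a10 is on the same chromosome. Capitals mark a motif match, and a sequence wholly in lower case holds none of those searched.
Ahnak: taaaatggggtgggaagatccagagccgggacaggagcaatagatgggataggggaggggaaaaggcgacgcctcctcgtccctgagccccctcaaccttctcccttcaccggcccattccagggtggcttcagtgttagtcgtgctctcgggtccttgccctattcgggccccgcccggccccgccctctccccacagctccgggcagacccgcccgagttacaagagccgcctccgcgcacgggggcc
S100a4: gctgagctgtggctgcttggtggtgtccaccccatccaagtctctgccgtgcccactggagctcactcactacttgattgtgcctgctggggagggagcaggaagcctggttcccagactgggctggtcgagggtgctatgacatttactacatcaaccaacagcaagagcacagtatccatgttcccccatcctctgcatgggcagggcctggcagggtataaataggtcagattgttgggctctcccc
S100a6: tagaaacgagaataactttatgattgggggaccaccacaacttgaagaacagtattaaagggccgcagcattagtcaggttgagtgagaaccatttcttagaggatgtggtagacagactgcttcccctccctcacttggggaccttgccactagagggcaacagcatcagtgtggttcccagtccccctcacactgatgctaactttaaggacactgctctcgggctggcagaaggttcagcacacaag
Anxa2: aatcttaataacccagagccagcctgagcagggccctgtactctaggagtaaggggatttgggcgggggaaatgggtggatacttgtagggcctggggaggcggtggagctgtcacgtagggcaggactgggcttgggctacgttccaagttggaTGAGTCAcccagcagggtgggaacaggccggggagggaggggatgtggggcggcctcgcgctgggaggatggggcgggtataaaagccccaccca
Plscr1: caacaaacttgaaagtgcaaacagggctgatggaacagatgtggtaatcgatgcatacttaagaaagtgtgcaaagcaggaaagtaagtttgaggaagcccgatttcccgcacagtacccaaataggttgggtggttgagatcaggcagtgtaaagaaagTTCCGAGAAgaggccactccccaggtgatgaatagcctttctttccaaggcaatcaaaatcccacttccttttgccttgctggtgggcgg
Both strands were searched for TTCNNNGAA, the core that STAT and BCL6 proteins can share, for TTCCTAGAA, a form of it described for BCL6, for TGANTCA, the AP-1 core, and for the CArG box of serum response factor. TTCCTAGAA is contained in TTCNNNGAA. The Plscr1 promoter held 1 match to the STAT core and the Anxa2 promoter 1 match to the AP-1 core, which are the stretches in capitals. No other match was found in the 7 promoters. Of all 32841 promoters of this length, 7.02% held TTCNNNGAA, 0.347% TTCCTAGAA, 6.75% TGANTCA and 1.47% the CArG box. With 1 of 7 genes at most for any motif, the promoters of Ahnak, S100a4 and S100a6 share none of these letters within 250 bases, which says nothing about binding elsewhere.

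In MZ cells most of these genes lay at other levels. For homozygous deletion against wild-type, 5 genes (Ahnak, S100a4, S100a6, S100a10 and Crip1) had both homozygous arrays above both wild-type arrays, against 9.96% of tested genes. None passed the threshold, where 0.0107% of tested genes were called higher. Differences were above 0 for 8 of the 9 genes and for 38.8% of tested genes. The median difference of the 9 genes was 0.91, and that of all tested genes was -0.08. No member was ordered over wild-type, heterozygous and homozygous MZ arrays, an order that 0.763% of tested genes had.

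Ahnak was at 6.73 and 5.17 in wild-type MZ cells, at 3.91 and 4.55 in heterozygous and at 8.26 and 7.02 in homozygous cells. The homozygous arrays were the highest and the heterozygous arrays the lowest, with wild-type in between. The homozygous level was 1.68 ± 0.53 above wild-type. S100a6 was at 7.55 and 5.53, at 7.07 and 6.07, and at 8.94 and 8.43 on the same arrays. Only its homozygous arrays stood apart, by 2.14 ± 0.60 over wild-type (limma adjusted p = 0.656).

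S100a10 varied little within the MZ groups. Its arrays read 11.20 and 10.83, 11.16 and 10.82, and 12.14 and 11.72, so that both homozygous arrays lay above the other 4. The difference from wild-type was 0.91 ± 0.21 (limma adjusted p = 0.488), close to the 0.75 ± 0.21 of FO cells. S100a4 was at 3.98 and 3.06, at 4.21 and 3.76, and at 7.08 and 4.13. Here 1 array carries the value: homozygous replicate 1, which also held neutrophil genes, read 7.08, and replicate 2 read 4.13, just above wild-type and below heterozygous replicate 1. The difference of 2.09 ± 0.91 (limma adjusted p = 0.801) became 1.07 without the 4 arrays that carried neutrophil genes.

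Anxa2 was near the lower end of its range in MZ cells, at 4.31 and 3.69, 3.75 and 3.52, and 4.33 and 3.75, with a homozygous minus wild-type difference of 0.04 ± 0.28 (limma adjusted p = 0.99). Vim was at 11.69 and 10.14, 9.78 and 9.55, and 12.44 and 11.51, and Lgals1 at 8.56 and 7.11, 7.06 and 6.59, and 9.05 and 7.98. In both genes 1 wild-type array lay within the homozygous range, and the differences were 1.06 ± 0.48 and 0.68 ± 0.52 (limma adjusted p = 0.801 and 0.828). Crip1 was at 13.42 and 13.31, 13.13 and 13.40, and 13.51 and 13.50, with a difference of 0.14 ± 0.25 (limma adjusted p = 0.932). Plscr1 was at 10.56 and 8.72, 8.43 and 8.21, and 9.62 and 9.12, and was the member whose homozygous minus wild-type difference in MZ cells was negative (-0.27 ± 0.68, limma adjusted p = 0.955). Without the 4 arrays with neutrophil genes that difference was 0.40, all 9 differences were above 0 with a median of 0.89, and those of Ahnak and S100a6 were 1.85 and 2.90.

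Between heterozygous and wild-type MZ cells 7 of the 9 differences were below 0, and among tested genes 41.9% were above 0. The difference was -1.72 for Ahnak, -1.31 for Plscr1, -1.25 for Vim and -1.01 for Lgals1, and in these 4 genes both heterozygous arrays were below both wild-type arrays, as they were for 17.8% of tested genes. No member was called, where 0.0107% of tested genes were called lower. Wild-type replicate 1, the array with the high Gapdh 3' minus 5' difference and with neutrophil genes, held the higher of the 2 wild-type values in all 9 genes. Without it the differences were -0.94 for Ahnak, -0.48 for Vim, -0.40 for Plscr1 and -0.29 for Lgals1. Without wild-type replicate 2 instead, Ahnak and Vim were called lower (limma adjusted p = 0.0363 and 0.0342), in a fit that called 415 of 9306 genes in place of 1 and whose wild-type group was replicate 1 alone. Against heterozygous cells, the homozygous MZ arrays were higher in all 9 genes, by a median of 1.62, as they were for 50.2% of tested genes, and 7 genes did not overlap, against 18.4% of tested genes. The differences were 3.40 ± 0.53 for Ahnak, 2.31 ± 0.48 for Vim and 2.11 ± 0.60 for S100a6 (limma adjusted p = 0.471 for Vim and 0.816 for S100a6). No member passed the threshold, which 0.0107% of tested genes passed upwards. With the 4 arrays with neutrophil genes left out, all 9 differences stayed above 0 but their median was 0.80. Those of Ahnak, Vim and S100a6 were then 2.78, 1.84 and 1.85, and that of S100a4 fell from 1.62 to 0.15.

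**Figure D2:**
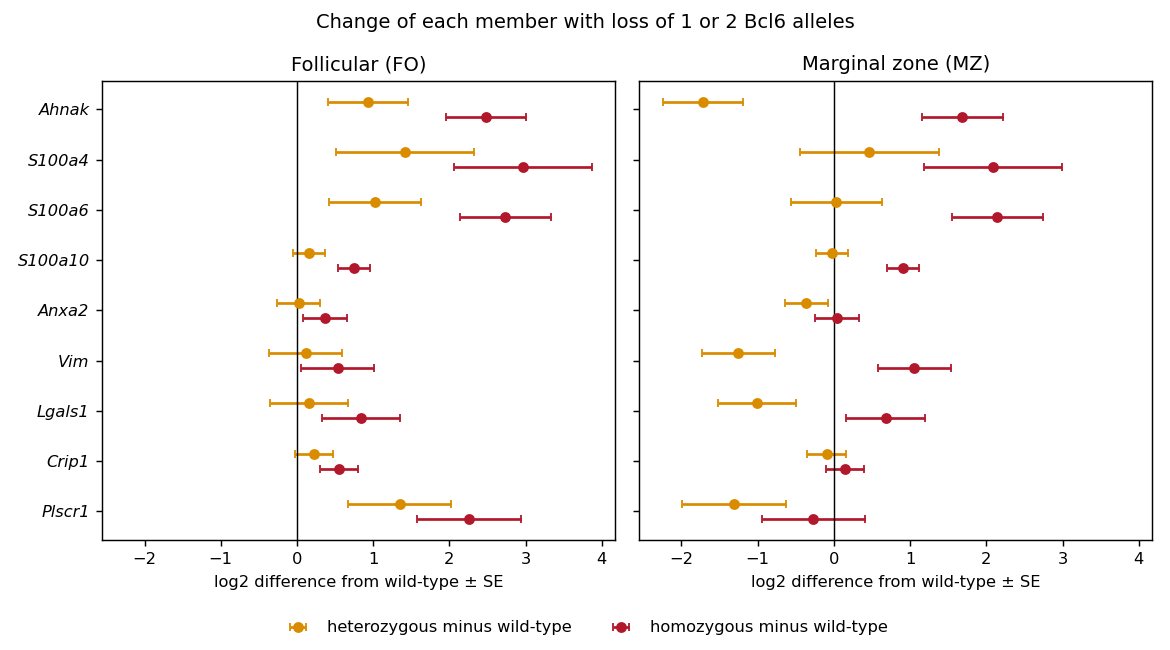
Heterozygous (orange) and homozygous (red) minus wild-type difference of each gene in log2 units, with its standard error from the 12-array model, in FO and in MZ cells. The homozygous differences reach 2.96 for S100a4 in FO cells, Anxa2 lies near 0 in MZ cells, and Plscr1 is 2.26 in FO and -0.27 in MZ cells.

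Averaged over both cell types, homozygous deletion gave differences of 2.44 ± 0.42 for S100a6, 0.83 ± 0.15 for S100a10, 2.53 ± 0.64 for S100a4 and 2.08 ± 0.37 for Ahnak. Leaving out the 4 arrays with neutrophil genes gave 2.72, 0.82, 1.65 and 2.13 in the same order. With all 12 arrays the limma adjusted p was 0.0603 for S100a6, 0.0669 for S100a10 and 0.209 for S100a4. No member passed, where 0.333% of tested genes were called higher. S100a10 passed with a limma adjusted p of 0.0486 after quantile normalization over all 12 arrays, and S100a6 with 0.0104 and 0.0195 without MZ wild-type replicate 1 or 2, in fits that called 48 and 272 genes in place of 43. The difference between the MZ and the FO change was not called for any member, nor higher for any gene, and 0.0107% of genes were called lower. Plscr1 was the furthest from 0, at -2.53 ± 0.96 (limma adjusted p = 0.975). This does not show that the other members changed alike in both cell types.

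Among the MZ arrays, the highest levels of most of the members fell on the arrays where proliferation genes were highest. The mean log2 of 7 proliferation genes was 7.93 and 6.61 on the wild-type arrays, 6.81 and 6.19 on the heterozygous arrays and 8.89 and 7.67 on the homozygous arrays. Homozygous replicate 1, wild-type replicate 1 and homozygous replicate 2 were thus the 3 highest MZ arrays for these genes. The same 3 arrays were the highest for Ahnak, S100a6, S100a10, Vim, Lgals1, Crip1 and Plscr1. For Anxa2, homozygous replicate 2 and heterozygous replicate 1 were level at 3.75. For S100a4, heterozygous replicate 1 (4.21) lay above homozygous replicate 2 (4.13) and wild-type replicate 1 (3.98). On FO arrays the proliferation mean was 5.06 and 3.66 in wild-type, 4.40 and 4.06 in heterozygous and 5.26 and 4.34 in homozygous cells, which overlap. The mean of 13 immediate early genes was 9.49 and 11.92 on FO wild-type arrays and 11.90 and 10.92 on FO homozygous arrays, and 8.38 and 10.08 on MZ heterozygous arrays. It was 11.48 and 10.66 on MZ wild-type and 11.79 and 10.29 on MZ homozygous arrays. The part of either group of genes in the differences was not tested.

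Comparing the arrays of a group shows how far 1 array can set a value. In MZ wild-type cells all 9 genes were higher on replicate 1 than on replicate 2, by 0.11 to 2.02 with a median of 1.45, where 57.6% of tested genes were higher. In MZ homozygous cells all 9 were again higher on replicate 1, by 0.00 to 2.95 with a median of 0.57, against 50.7% of tested genes. In MZ heterozygous cells, where neither array held neutrophil genes, 7 of the 9 were higher on replicate 1, against 41.6% of tested genes. In the FO groups 4 or 5 of the 9 genes were higher on replicate 1. S100a4, Vim and Plscr1 were higher on replicate 1 in all 6 groups, as were 6.44% of tested genes. Neutrophil genes were found on replicate 1 of MZ wild-type, MZ homozygous, FO heterozygous and FO homozygous cells. Their mean over 7 genes was 4.84, 4.16, 4.25 and 5.71 on these arrays and 2.27 to 2.30 on the others. Of 8 macrophage and monocyte genes, 3 to 5 reached a log2 value of 4 on every array, MZ heterozygous arrays included. The mean of these 8 genes was higher on replicate 1 than on replicate 2 in all 6 groups. In FO cells it was 4.13 and 3.57 in wild-type, 4.17 and 3.45 in heterozygous and 4.23 and 3.58 in homozygous arrays. In MZ cells it was 4.68 and 3.79, 4.42 and 3.89, and 4.61 and 3.87 in the same order. The part of neutrophil, macrophage or monocyte RNA in these gaps was not tested.

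**Figure D3:**
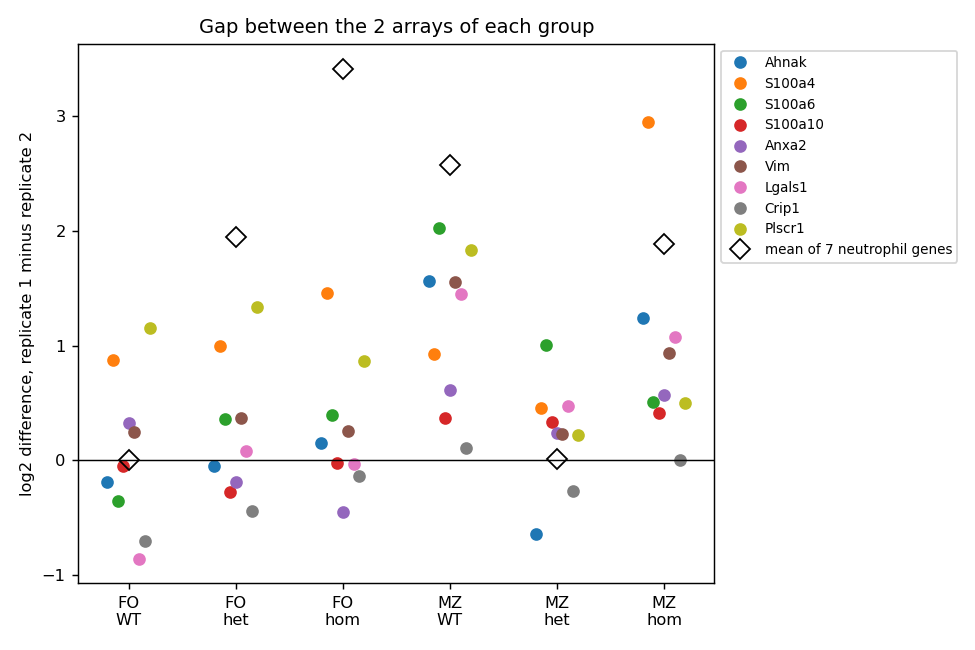
Replicate 1 minus replicate 2 of each gene in log2 units, for each of the 6 groups; open diamonds give the same gap in the mean of 7 neutrophil genes. All 9 genes lie above 0 in MZ wild-type, with a median of 1.45, and in MZ homozygous cells, with a median of 0.57.

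For Ahnak, S100a10, Anxa2, Vim, Lgals1 and Plscr1 the differences between the cell types in wild-type cells were larger than those between homozygous and wild-type cells. All 6 FO arrays were above all 6 MZ arrays for Ahnak, S100a10, Anxa2 and Vim, as for 17.0% of tested genes. In wild-type cells these 4 genes were called lower in MZ than in FO cells and Plscr1 was called higher, where 11.5% of tested genes were called lower and 10.7% higher. The differences were -3.94 ± 0.53 for Ahnak, -3.10 ± 0.48 for Vim, -2.25 ± 0.28 for Anxa2 and -1.97 ± 0.21 for S100a10 (limma adjusted p = 9.95e-04, 0.00213, 7.28e-04 and 2.86e-04). Plscr1 was higher by 3.56 ± 0.68 (0.00653), and without FO wild-type replicate 2 its limma adjusted p was 0.0505. The differences of S100a6 and Lgals1 were -1.42 ± 0.60 and -1.28 ± 0.52 (limma adjusted p = 0.129 and 0.114), and both were called without MZ wild-type replicate 1 (0.00834 and 0.0295). S100a4 and Crip1 differed least, by -0.27 and -0.33. The array minimum was 2.21262 on all FO and 2.21924 on all MZ arrays, which may come from separate normalization runs. Levels across the cell types carry any such difference, and it cannot be told apart from cell type. The median difference of all tested genes was -0.12, -0.17 and -0.17 in wild-type, heterozygous and homozygous cells, and that of the 9 genes was -1.42, -2.41 and -1.81.

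The order of the Ahnak group means shows this gap. From low to high it was MZ heterozygous (4.23 ± 0.45, SD, n = 2), MZ wild-type (5.95 ± 1.11), MZ homozygous (7.64 ± 0.88), FO wild-type (9.89 ± 0.13), FO heterozygous (10.82 ± 0.03) and FO homozygous (12.37 ± 0.10). No neighbours in this order overlapped, but the MZ groups had SDs of up to 1.11. S100a6 had another order, in which MZ homozygous cells at 8.68 ± 0.36 lay above FO wild-type cells at 7.96 ± 0.25.

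In heterozygous cells 6 of the 9 genes were called lower in MZ than in FO cells, where 13.3% of tested genes were. The difference was -6.59 ± 0.53 for Ahnak (limma adjusted p = 5.92e-05) and -4.47 for Vim, and S100a6 and Lgals1 joined Anxa2 and S100a10 with adjusted p of 0.0211 and 0.0104. These last calls were lost without FO heterozygous replicate 1 or 2 or MZ heterozygous replicate 2, with limma adjusted p of 0.0512 to 0.116. In homozygous cells 5 were called lower, against 10.8% of tested genes. The differences were -4.73 for Ahnak, -2.58 for Anxa2, -2.58 for Vim, -2.01 for S100a6 and -1.81 for S100a10. The call of S100a6 (limma adjusted p = 0.0484) was lost after quantile normalization (0.0905) and after centring each array on its median (0.0706). It was also lost with no filter (0.0521), a filter at 6 (0.056), all probe sets tested separately (0.0505) and the probe set of largest variance (0.0566). In 10 of 12 fits that left out 1 array it was lost as well. That of Vim was lost without MZ homozygous replicate 2 (0.0514), and Lgals1 gained one without either MZ wild-type array (0.038), as did Crip1 without either FO wild-type array (0.0366). Plscr1 was 1.03 ± 0.68 higher in homozygous MZ cells than in FO cells (limma adjusted p = 0.35), and its level in wild-type FO cells was the lowest of its 6 groups. Without the 4 arrays with neutrophil genes, the medians were -2.16, -2.30 and -2.03 in wild-type, heterozygous and homozygous cells. In the same order, the differences were -4.72, -6.61 and -5.28 for Ahnak and -3.87, -4.29 and -2.91 for Vim. They were -2.56, -2.73 and -3.09 for Anxa2 and -2.16, -2.30 and -2.03 for S100a10. Plscr1 fell to 2.64 in wild-type cells. Each of these comparisons then included a group with 1 array.

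**Figure D4:**
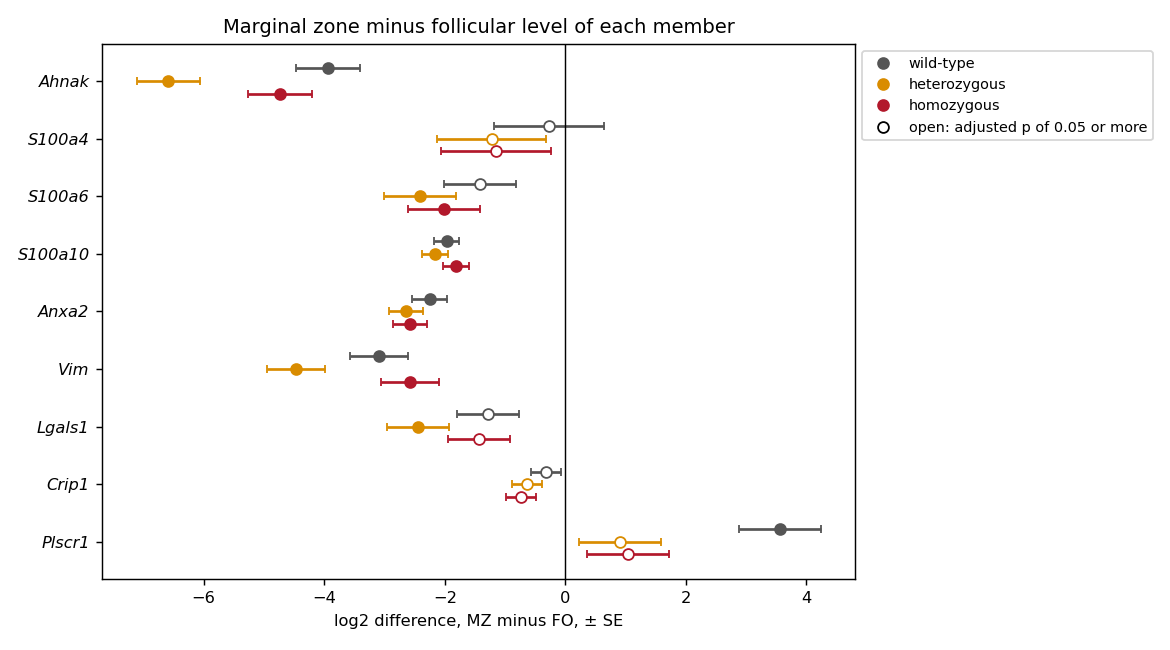
MZ minus FO difference of each gene in log2 units within each Bcl6 genotype, with its standard error; open symbols have a limma adjusted p of 0.05 or more. Ahnak lies between -6.59 and -3.94, and Plscr1 is the gene above 0, at 3.56 in wild-type cells.

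Most members have further probe sets on the array, 12 beside the 9 used, of which 7 passed the filter. All 7 were higher in homozygous than in wild-type FO cells. The further probe sets of Vim gave differences of 0.81 and 1.04 there, that of Lgals1 1.22, those of S100a10 0.47 and 1.05 and those of Plscr1 2.18 and 0.12, the last near the array minimum. In MZ cells 5 of the 7 were higher, and probe sets of 1 gene disagreed for S100a10 and Plscr1. The least bright of the S100a10 probe sets gave -0.40 where the other 2 gave 0.91 and 0.81. Its MZ minus FO differences were -1.67, -1.88 and -3.11 in wild-type, heterozygous and homozygous cells. In the fit on probe sets of largest variance, which used it, S100a10 was called in none of them (limma adjusted p = 0.299, 0.244 and 0.078). The 3 further probe sets of Ahnak never exceeded 3.15, so its values rest on 1 probe set, as do those of Anxa2, S100a4, S100a6 and Crip1.

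Other genes of the same families mostly did not pass the threshold for deletion. These lists too were drawn up with results of these arrays known. Of the other S100 genes, only S100a8, S100a9 and S100a13 were high enough to be tested, of 10 on the array, and 0 of 3 were called for deletion in FO or MZ cells. S100a13 was called lower in MZ than FO cells in heterozygous cells (-0.79, limma adjusted p = 0.0498). S100a8 and S100a9, the neutrophil genes, were high on the 4 arrays named above. Of 6 other annexins tested 0 were called for deletion in either cell type, with a median of 0.15 in FO cells. The smallest p was that of Anxa1, at 0.56 higher (limma adjusted p = 0.325). Between wild-type cell types Anxa5 fell by 1.48 in MZ cells (limma adjusted p = 6.92e-04), as Anxa2 did, while Anxa4 rose by 0.85 (0.00837). Anxa7 was called lower in MZ cells in the heterozygous and homozygous comparisons (-0.68 and -0.71, limma adjusted p = 0.041 and 0.0413). Anxa9 was at 2.52 on all FO arrays and at 4.86 to 6.01 on MZ arrays, and passed the filter through MZ cells alone, so that its difference had to appear.

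Of 4 other galectins 0 were called for deletion, and 1, Lgals3, was called lower in MZ than in FO cells, in heterozygous cells alone among the 3 genotypes (-3.51, limma adjusted p = 0.0314). Lgals3, which encodes galectin-3 and is abundant in macrophages, was at 7.97 and 7.29 in wild-type and 9.09 and 8.60 in homozygous FO arrays (difference 1.21, limma adjusted p = 0.942). Of 2 other scramblase genes and 3 lamin genes, 0 were called for deletion. Lmna, which encodes lamin A, stood at 4.23 on all FO arrays and at 3.33 to 3.37 on MZ arrays, values so alike that they lie at a minimum of that probe set, and it passed the filter through FO cells alone. Of 4 other genes of the CRIP and CSRP families 0 were called for deletion. In wild-type cells 3 were called lower in MZ than in FO cells, as were 11.5% of tested genes. Csrp2 differed by -2.87 and Csrp1 by -1.03 (limma adjusted p = 0.0239 and 0.0362). Crip3, at 6.31 to 7.73 on FO arrays and 2.54 to 3.02 on MZ arrays, passed the filter through FO cells alone, so that its difference had to appear. Crip1 itself was -0.33 there.

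Of 3 tested genes tied to AHNAK and membrane repair, 1 was called for deletion. Capn2, which encodes a subunit of the calcium-dependent protease calpain, rose by 1.30 ± 0.15 in homozygous FO cells (limma adjusted p = 0.011). It was at 7.42 and 7.54 in wild-type, 8.16 and 8.35 in heterozygous and 8.77 and 8.77 in homozygous arrays, the order seen for Ahnak. In MZ cells Capn2 was at 8.75 to 9.11 on all 6 arrays, so that its MZ minus FO difference in wild-type was 1.53 (1.60e-04), opposite in sign to Ahnak's. Myof, which encodes the membrane repair protein myoferlin, rose by 5.77 ± 0.38 from FO to MZ wild-type cells (limma adjusted p = 1.81e-05) and was called higher in MZ cells in all 3 genotypes. Of 19 actin cytoskeleton genes, 1 was called higher and 1 lower in homozygous FO cells, with a median of -0.03. Vcl, which encodes the adhesion protein vinculin, rose by 1.66 ± 0.23 while Gsn, whose product gelsolin severs actin filaments, fell by 1.92 ± 0.22 (limma adjusted p = 0.0299 and 0.0114). The calls of Capn2, Vcl and Gsn in homozygous FO cells were absent from the fit of the 2 groups alone. That fit called 0 genes in place of 40, and the fit of FO arrays alone called 5. In MZ cells 0 of the 19 actin cytoskeleton genes were called for deletion. Between wild-type cell types 5 were called lower in MZ cells (Cnn2, Ezr, Flna, Myl12a and Tagln2) and Vcl was called higher. Of all tested genes 11.5% were called lower and 10.7% higher there. The list median was -0.52 against -0.12 for all tested genes. In heterozygous or homozygous cells Msn, Pfn1, Capg and Zyx were also called lower in MZ cells, and Gsn higher in homozygous cells. Of all tested genes 13.3% were called lower in heterozygous cells. In homozygous cells 10.8% were called lower and 8.26% higher.

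A list of 13 tested genes known from memory and B1 cells was described in the same way. In homozygous FO cells 1 of the 13 was called: Ptpn22, a phosphatase gene that limits antigen receptor signalling, rose by 2.02 ± 0.32 (limma adjusted p = 0.0427), from 8.63 and 8.66 to 10.70 and 10.63. This call too was absent from the fit of the 2 groups alone, which called 0 genes. The median of the list was 0.22. In homozygous MZ cells 0 were called and the median was -0.35. Between wild-type cell types 6 genes were called higher in MZ cells (Cd5, Cd80, Cd9, Itgb1, Plac8 and Ptpn22) and 1 lower, where 10.7% of tested genes were called higher and 11.5% lower. The median was 1.60 for the list and -1.42 for the 9 members. The count includes Cd80 and Cd5, and the median also Ctla4, none of which reached 4 on an FO array. These entered the test through MZ cells alone, so the filter set part of the count and of the list median. Cd9, a tetraspanin gene that also marks MZ cells, rose by 4.74 (limma adjusted p = 7.48e-06), Plac8 by 1.60 (1.42e-04) and Itgb1, an integrin gene, by 1.35 (3.92e-04). Spn, which encodes CD43 and was at 7.48 to 8.02 on FO arrays, fell by 2.31 (0.00342). Cd80, a costimulatory ligand, was at 2.21 on FO arrays and at 4.44 to 5.72 on MZ arrays. Cd5 was at 2.30 on all FO arrays and at 3.43 to 4.54 on MZ arrays, above 4 on replicate 1 of MZ wild-type and homozygous cells. Both passed the filter through MZ cells alone, so that their differences had to appear. Of the 5 listed markers of B1 cells, Spn and Cd5 passed the filter in these sorted cells, and Itgam, Bhlhe41 and Zbtb32 did not.

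The levels of the 9 genes varied together from array to array, with Plscr1 as the exception across cell types. Over all 12 arrays the Pearson correlations of their 36 pairs had a median of 0.80 and ran from -0.58 to 0.98, with 29 positive. Within the 6 FO arrays the median was 0.74 and within the 6 MZ arrays 0.77, and all 36 were positive in both. These arrays share genotype differences and array quality, so the correlations describe the arrays only. Among the other tested genes, the pattern most like Ahnak's over the 12 arrays was that of Slc15a3, a peptide and histidine transporter gene (r = 0.99), followed by Septin11, a cytoskeletal GTPase gene (0.99), Fkbp11 (0.98), Synj1 (0.98) and Cldn10 (0.98). Slc15a3 had group means of 7.60, 8.14 and 8.83 in wild-type, heterozygous and homozygous FO cells and of 5.45, 4.52 and 5.98 in the same MZ groups. The genes most like the mean z-score of the 9 members were Lpp (0.98), which encodes a focal adhesion protein, Vsir (0.97), Afap1 (0.96), Septin11 (0.96) and Suds3 (0.96). Lpp had means of 10.17, 10.90 and 11.69 in FO cells and of 9.23, 9.12 and 10.05 in MZ cells, with its highest level in homozygous cells of both types.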

How the data were processed

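Total RNA of sorted B cells was measured on 12 arrays, 2 for each of 6 groups. The deposited values were log2 expression per probe set, which the authors had made with GCRMA, as the submitters' processing notes list it. No version of it is given in the sources used here. The method gathers low values at a shared minimum, so differences of dim genes are compressed. Of 45101 probe sets, 34958 had 1 gene symbol. A gene took its probe set with the highest mean, 64 control probe sets left out, and a gene entered the test if 2 or more arrays reached 4 (log2). Group means were fitted in 1 model by lmFit and eBayes of limma 3.58.1, run in R 4.3.3, with 6 residual degrees of freedom, 11 contrasts, two-sided p-values adjusted by Benjamini-Hochberg over all 9306 genes and a threshold of 0.05. The model was tested on simulated data. The number of arrays limits the precision. FO and MZ samples were treated as independent.

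The members and lists were chosen with earlier results of these data known. Text names all members, genes of each list that were called in a contrast or had 1 of its 3 smallest p, and the 5 genes most correlated with Ahnak or with the members' mean. Others were chosen after their values were seen. Alternatives covered the filter, probe set rule, scaling, variance moderation, array weights, arrays in the model, a replicate block and leaving out each array. Promoters came from RefSeq.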

Additional observations from a re-analysis of the deposited data

Results flagged for a closer look

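For Ahnak and Plscr1 the differences between heterozygous and wild-type arrays had opposite signs in FO and MZ cells, and every array followed its group. None of these differences passed the threshold. The heterozygous minus wild-type difference of Ahnak was 0.93 on FO arrays and -1.72 on MZ arrays, with no overlap in either. The MZ change minus the FO change was -2.65 ± 0.75 (SE), with a limma adjusted p of 0.813 over all 9306 genes. For Plscr1 it was -2.66 ± 0.96, with the same limma adjusted p. Without MZ wild-type replicate 1, which had a Gapdh 3' minus 5' difference of 6.90 and neutrophil genes, the values were -1.87 and -1.74. The comparison was added after the heterozygous values had been seen. No gene was called in it by limma, and 388 of 9306 had an unadjusted p under 0.05.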

How the results depend on the processing

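With 2 arrays a group, 1 array can decide a call. Over alternatives other than leaving out 1 array, 1087 of 1125 member differences kept their direction and side of the threshold, 15 lost the call, 12 gained one and 11 reversed; leaving out 1 array gave 1126, 18, 16 and 28 of 1188. The number of members called changed from 5 to 3 for MZ minus FO in homozygous cells with the probe set of largest variance, and from 5 to 3 in wild-type cells fitted on those 2 groups alone. Smaller shifts occurred too. In homozygous cells the number was 4 with no filter, a filter at 6, all probe sets tested separately, quantile normalization or centring. It was 6 there with the replicate block or the 2 groups alone, and 7 with array weights. For homozygous deletion it changed from 0 to 1 in FO cells with array weights (S100a6), with FO arrays alone (a member whose difference was known beforehand, so that the call supports nothing) and with the replicate block (Plscr1, adjusted p = 0.0498). Averaged over cell types it changed from 0 to 1 with quantile normalization, robust moderation with trend or array weights, and to 2 with the replicate block (S100a4 and S100a6). Deviations of same-numbered arrays correlated at -0.26 to 0.77 over 15 pairs of groups, 8 of them over 0.1, so the numbers were not taken to pair the arrays. All 6 pairs among FO heterozygous, FO homozygous, MZ wild-type and MZ homozygous cells, whose replicate 1 held neutrophil genes, lay between 0.45 and 0.77. The block also gave Crip1 a call, MZ minus FO in homozygous cells (0.0401), and changed no other member's call.

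Leaving out 1 array gave 0 to 2 members called for homozygous deletion in FO cells, 0 to 2 for the average over cell types and 0 to 2 for heterozygous MZ cells against wild-type; each 2 came without an MZ wild-type replicate. Without MZ wild-type replicate 2 the genes called rose from 1 to 415 for heterozygous MZ cells, from 43 to 272 for the average and from 40 to 58 for FO cells. It gave 4 to 7, 4 to 6 and 3 to 6 for MZ minus FO in wild-type, heterozygous and homozygous cells, the 3 without MZ homozygous replicate 2, and 0 for the rest. S100a6 lost its call in homozygous cells in 10 of 12 such fits.

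Reversed values were all of differences that had not been called. With the probe set of largest variance S100a10 gave -0.69 for heterozygous FO cells, -0.40 for homozygous MZ cells and -1.44 for the difference between MZ and FO changes, where Vim gave -0.034. S100a10 in heterozygous MZ cells was 0.051 after quantile normalization, 0.056 after centring and 0.16 without the 4 arrays with neutrophil genes. Without those, Vim in heterozygous FO cells was -0.065, Plscr1 in homozygous MZ cells 0.40, and the MZ minus FO change 0.36 for S100a6 and 0.014 for Lgals1. Leaving out 1 array reversed heterozygous FO differences of Anxa2 (range -0.14 to 0.19), Crip1 (-0.13 to 0.57), Lgals1 (-0.27 to 0.59) and Vim (-0.065 to 0.30); heterozygous MZ differences of Crip1 (-0.23 to 0.039), S100a10 (-0.22 to 0.16) and S100a6 (-0.98 to 1.04); homozygous MZ differences of Anxa2 (-0.27 to 0.35), Lgals1 (-0.045 to 1.40) and Plscr1 (-1.19 to 0.65); and MZ minus FO levels of Crip1 (-0.68 to 0.027) and S100a4 (-0.73 to 0.19) in wild-type and of S100a4 (-2.63 to 0.33) in homozygous cells. The MZ minus FO change ranged from -0.88 to 0.57 for Lgals1, -0.047 to 0.37 for S100a10, -2.35 to 0.60 for S100a4, -1.61 to 0.42 for S100a6 and -0.26 to 1.30 for Vim. The cause was not tested.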
